A study of Homo sapiens with 2 samples.

Results

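The genes described are those of the cytosolic ribosomal proteins, taken by symbol: RPL or RPS followed by a digit, plus RPSA, RPLP0, RPLP1, RPLP2 and FAU, without RPS6K kinases, pseudogenes and antisense transcripts. The rule took 90 of the 36601 genes listed in the files. A pair of these encode no ribosomal protein of their own, RPS19BP1, a nucleolar protein that binds RPS19, and RPS10-NUDT3, a readthrough of neighbouring genes. The cells were A549, a human line of epithelial type established from a lung adenocarcinoma and profiled by droplet single-cell sequencing. Control cells were grown flat (2D) and never confined, whereas squashed cells had been pressed with silicone (PDMS) micropillars and had then recovered for 48 h. In each group the live cells negative for the ChReporter were taken by sorting, so the controls are reporter-negative too, and both libraries carry the same batch label. With 1 library per group the ratios below compare 2 libraries, no test was made, and all intervals are 95% intervals for counting error alone.

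The ribosome joins amino acids into protein in the order set by mRNA. Its small subunit reads the mRNA and its large subunit forms the peptide bonds. Each subunit is built from ribosomal RNA and a fixed set of proteins, most of them needed in equal numbers. The mRNAs of these proteins are short, abundant and stable, and most begin with a C followed by a run of C and T, the terminal oligopyrimidine tract, through which growth signals set their translation together. They make up a large share of the mRNA of dividing cells, so small shifts in them move every other gene's share.

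The kept cells, 1906 control and 1930 squashed, held 27482392 and 23328323 unique molecular identifiers (UMIs, tags that mark single captured molecules). Control cells were deeper, at a median of 12459 UMIs per cell against 9331 (2598 and 1790 genes), and the summed mitochondrial share was 8.97% and 8.99%. The libraries shared 4 barcodes. Of the 6 epithelial markers examined, KRT8 and KRT18 exceeded 20 CPM (UMI counts scaled to the same total in both libraries), whereas KRT19, CDH1 and CLDN4 were below 8 CPM in both libraries and EPCAM had no UMI in the squashed library. Of the markers of other cell types, those of fibroblasts summed to 7.97 and 6.64 CPM, those of immune cells to 14.5 and 22.7 CPM, mostly CD68, with 3 of 6 at 0, and those of endothelial cells to 44.8 and 10.2 CPM, nearly all EGFL7, with 2 of 5 at 0.

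To show the start that most of these mRNAs share, the sequence around an annotated start is printed for 10 members, in RefSeq's GRCh38.p14. It runs from 10 bases before to 20 bases from that start. Where any listed start of a gene had the run described next, a start with the run was printed, so the display favours it. Capitals mark an unbroken run of C and T that opens with C at the annotated first base and goes on for at least 4 more bases, on the gene's own strand. The first 6 are pairs of a ribosomal protein gene and its paralog, and the last 4 are members whose levels are described below.
RPS27: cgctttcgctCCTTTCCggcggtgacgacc (chr1:153990752-153990781, plus strand)
RPS27L: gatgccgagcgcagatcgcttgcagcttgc (chr15:63157458-63157487, minus strand)
RPL36A: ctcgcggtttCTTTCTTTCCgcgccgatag (chrX:101391001-101391030, plus strand)
RPL36AL: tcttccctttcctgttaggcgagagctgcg (chr14:49620607-49620636, minus strand)
RPL26: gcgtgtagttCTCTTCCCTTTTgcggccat (chr17:8383174-8383203, minus strand)
RPL26L1: tccaggggtcggcgaacgaaacgcggagct (chr5:172958719-172958748, plus strand)
RPL38: aagtctcgttCTTTTTCgtccttttccccg (chr17:74203668-74203697, plus strand)
RPL39: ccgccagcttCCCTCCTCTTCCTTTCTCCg (chrX:119791611-119791640, minus strand)
RPS19: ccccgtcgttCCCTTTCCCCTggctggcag (chr19:41860245-41860274, plus strand)
RPS10: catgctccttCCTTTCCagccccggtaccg (chr6:34426050-34426079, minus strand)

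Of the 71 members matched in RefSeq by symbol, 49 (69.0%) had such a run at an annotated start, against 1404 of 27305 genes with a start in that table (5.14%). In the pairs shown, RPS27, RPL36A and RPL26 had the run and their paralogs RPS27L, RPL36AL and RPL26L1 had none at the listed start. Other matched pairs differed. RPL22 and RPL22L1 both had the run, RPL10 had it and RPL10L did not, and RPS4Y1 had it where RPS4X did not. The log2 ratio of squashed over control had a median of 0.02 over 48 members with the run that reached 20 CPM in either library and -0.05 over 20 without it. The ratios ran from -0.77 (RPS10) to 1.16 (RPS27) with the run and from -0.51 (RPS15) to 1.78 (RPS29) without it, so the ranges overlapped. At least 1.5-fold higher were 8 of 48 and 3 of 20, and 2 and 0 were lower, where 3.48% of all measured genes were higher and 12.4% lower by that size. The classes were not tested against each other. Annotated starts can miss the true start by a few bases, and a missing run says only that these letters are not at the listed position.

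Ribosomal protein mRNA made up 30.1% of the UMIs of the control library (8281387 UMIs) and 32.8% of the squashed library (7661880 UMIs), a log2 ratio of 0.12. It was 0.28 with TMM scaling, which sets the bulk of genes equal, and 0.083 in cells with at least 10000 UMIs. The small subunit's genes held 12.7% and 13.8%, and those of the large subunit 17.4% and 19.0%, so both subunits were higher by similar amounts (0.11 and 0.13). The UMIs were also split by member on the CPM scale. The 12 members that were higher in squashed cells by 1.5-fold or more together held 2.90% of control and 5.73% of squashed UMIs. All other members together held 27.2% in the control and 27.1% in the squashed library (-0.01). Because these 12 were taken for their ratios, leaving them out lowers the difference by construction. The remainder describes where the UMIs lay on the CPM scale, and ratios are higher with TMM scaling. It is a net of members on both sides of 0, such as RPL8 (-0.96) and RPLP2 (0.43).

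Of the 90 members, 85 reached 20 CPM in either library and are called measured. RPS4Y1, RPS4Y2, RPL3L and RPL10L had 0 UMIs in both libraries, and RPS10-NUDT3 had 15 and 41 UMIs. Of the measured members 12 (14.1%) were at least 1.5-fold higher, where 3.48% of all 4307 measured genes were, and 5 (5.88%) at least 1.5-fold lower, where 12.4% of all measured genes were. TMM scaling gave 13 and 4 members, and 5.83% and 8.52% of all measured genes. It put the median of all genes at 0.03 and that of the members at 0.15, so small negative ratios given below, such as those of RPS19, RPL26 and RPLP0, lie above 0 on that scale. The median log2 ratio of the 85 members was 0.00 to 2 decimals, with quartiles of -0.09 and 0.26, beside a median of -0.14 for all measured genes with quartiles of -0.34 and 0.06. On the CPM scale 42 members lay above and 43 below 0, and 68 of 85 lay above the median of all measured genes. Within 1.5-fold were 68 of 85 members, beside 3625 of all 4307 measured genes, so closeness to equal was not particular to the members.

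**Figure D1:**
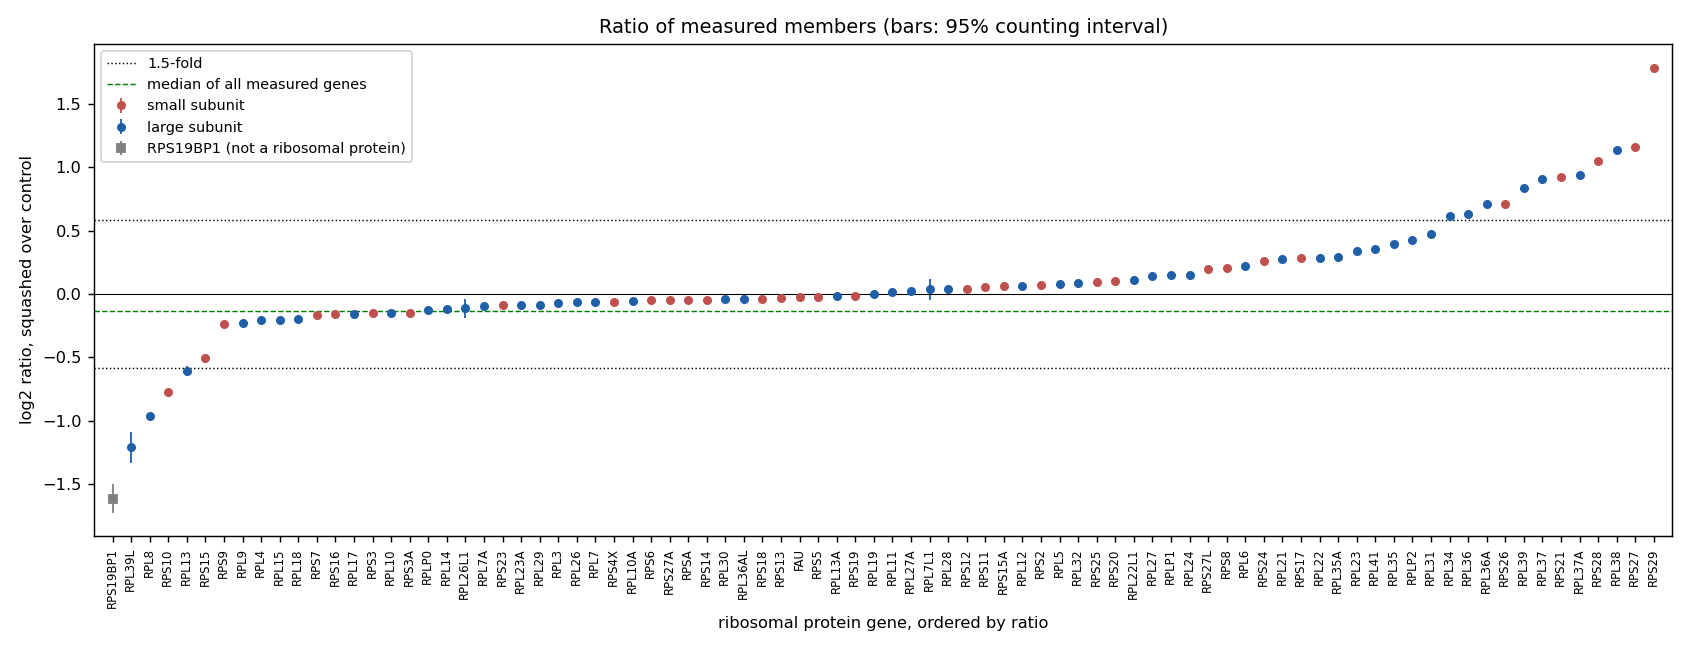
Log2 ratio of squashed over control (vertical axis) for 84 of the 85 measured members, ordered by ratio, coloured by subunit and with RPS19BP1 as a grey square, with 95% counting intervals as bars; the dotted lines mark 1.5-fold and the dashed line the median of all measured genes. RPS29 stands highest at 1.78, and RPL39L and RPS19BP1 stand lowest at -1.21 and -1.61.

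Among the small-subunit proteins, 5 were at least 1.5-fold higher and 1, RPS10, was lower. RPS29, a short zinc-binding protein of the subunit's head, is encoded on chromosome 14 (GRCh38, 49570984 to 49599164, minus strand). Its level was 1771 CPM in control and 6081 CPM in squashed cells (log2 ratio 1.78, 1.76 to 1.79) and made up 0.588% and 1.85% of all ribosomal protein UMIs. RPS27, another zinc-binding protein, is encoded on chromosome 1 (153990762 to 153992155). It stood at 3566 and 7953 CPM, a ratio of 1.16 (1.15 to 1.17). RPS28, which lies near the path by which mRNA leaves the subunit, stood at 1976 and 4082 CPM (1.05, 1.03 to 1.06). RPS21 stood at 2138 and 4042 CPM (0.92), and RPS26, which contacts mRNA at the exit of the channel, at 1016 and 1664 CPM (0.71, 0.69 to 0.73). In a typical cell the differences were of unlike size. At 2000 UMIs per cell the median count of RPS29 was 4 in control and 13 in squashed cells, and that of RPS27 was 7 and 17. For RPS28 it was 4 and 8, for RPS21 4 and 9, and for RPS26 2 and 3.

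RPS10, a protein of the subunit's head, was lower, at 1760 and 1029 CPM (-0.77, -0.80 to -0.75). Its gene overlaps that of RPS10-NUDT3, and reads of the pair may not be told apart. Of the 6 genes for proteins of the mRNA channel and decoding site, which hold the message and check the match of codon and transfer RNA, none lay 1.5-fold away. RPS15 had the lowest ratio of them, at 2794 and 1966 CPM (-0.51, -0.52 to -0.49), followed by RPS9 (-0.23) and RPS3 (-0.15). RPS23, which sits at the decoding site, was at -0.09, FAU, whose product carries the protein RPS30 fused to a ubiquitin-like part, at -0.02, and RPS2, at the entry of the channel, at 0.07. RPS19, mutated in Diamond-Blackfan anaemia, stood at 14428 and 14287 CPM (-0.01, -0.02 to -0.01), and RPS6, the target of the S6 kinases, at 4589 and 4432 CPM (-0.05). RPS10, RPS15, RPS9 and RPS3 thus lay below the lower quartile of the members (-0.09), whereas FAU, RPS2, RPS19 and RPS6 lay between the quartiles. Of the 6 channel and decoding site genes, 5 lay below 0, with a median of -0.12. Of all 4307 measured genes 2947 lay below 0, with a median of -0.14, so this group lay near all genes.

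Among the large-subunit proteins, 7 were at least 1.5-fold higher. RPL38, encoded on chromosome 17 (74203582 to 74210655, plus strand), stood at 1818 and 3987 CPM (1.13, 1.12 to 1.15). The zinc-binding proteins RPL37A and RPL37 stood at 4067 and 7778 CPM (0.94, 0.92 to 0.95) and at 3192 and 5971 CPM (0.90, 0.89 to 0.92). RPL39, a small protein that lines the exit tunnel, stood at 3856 and 6865 CPM (0.83, 0.82 to 0.84). RPL36A, RPL36 and RPL34 had ratios of 0.71, 0.63 and 0.61. The large-subunit genes that were lower by this size were RPL8, RPL13 and RPL39L. RPL8, a protein near the centre where peptide bonds form, stood at 5008 and 2570 CPM (-0.96, -0.98 to -0.95), the lowest ratio after those of RPS19BP1 and RPL39L. RPL13 stood at 528 and 347 CPM (-0.60, -0.64 to -0.56).

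Genes for proteins that act together within the large subunit had spread ratios. In the acidic stalk, which recruits translation factors, RPLP2 was at 0.43 (3457 and 4644 CPM), RPLP1 at 0.15 (12837 and 14259 CPM) and RPLP0, its base, at -0.13 (4134 and 3788 CPM). RPL5 and RPL11, which bind the smallest RNA of the large subunit and hold back MDM2 when ribosome assembly fails, were close to equal at 0.08 and 0.02. Of the 9 exit-tunnel genes, RPL39 was the 1 at least 1.5-fold higher, with RPL31 at 0.47, RPL35 at 0.39 and RPL22 at 0.28. RPL19 was at 0.00 to 2 decimals, RPL26 at -0.07, RPL23A at -0.09, RPL17 at -0.15 and RPL4, which forms the narrowest point of the tunnel, at -0.21. The stalk therefore spanned -0.13 to 0.43 and the tunnel -0.21 to 0.83.

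Members that encode short proteins had the higher ratios. The 12 higher members encode 51 to 117 residues. Of the 21 measured members of up to 120 residues, 12 were at least 1.5-fold higher and 18 lay above 0. That limit lies just above the longest of the 12, so it takes in all of them by construction. Over the 11 members of up to 100 residues the median ratio was 0.92, and their summed share was 3.12% of control and 5.78% of squashed UMIs. The median was 0.10 over 32 members of 101 to 150 residues, -0.05 over 19 of 151 to 200, and -0.06 over 23 longer ones. Exceptions stand at the short end. RPL41, with 25 residues the shortest of all, stood at 7216 and 9221 CPM (0.35, 0.34 to 0.36), RPS27L, with 84 residues, at 0.20, and RPL39L, with 51 residues, was lower. Across the 85 genes Spearman's rho between ratio and coding length was -0.62 and Pearson's r on the log of length -0.46, whereas rho was -0.14 with the length of the annotated canonical transcript and -0.23 with its GC content. Genes are not independent replicates, all points share the same 2 libraries, and these relations are descriptions.

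The annotated transcript is a poor guide to the length of these mRNAs, since the canonical transcripts of RPL37, RPL37A, RPS28 and RPL38 are listed at 7573, 2992, 1330 and 1145 nt although they encode under 100 residues. Other genes showed a weaker relation, with a rho of -0.06 between ratio and coding length over 4138 other measured coding genes. Among the other measured genes of up to 100 residues, 29 of 174 were at least 1.5-fold higher, with a median of 0.05. Of all measured genes 3.48% were higher by that size. In the longer classes of other genes it was 11 of 323, 13 of 413 and 71 of 3228. High ratios at short coding length were thus not confined to the members. A transcript length up to 400 nt went with high ratios in both sets, all 4 members and 14 of 16 other genes being at least 1.5-fold higher. Members of high GC content lay on both sides, as RPL8 (63.6%), RPS19BP1 (62.6%), RPS15 (61.3%) and RPL36 (61.0%) had ratios of -0.96, -1.61, -0.51 and 0.63. The part of length and GC content in the ratios was not tested.

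**Figure D2:**
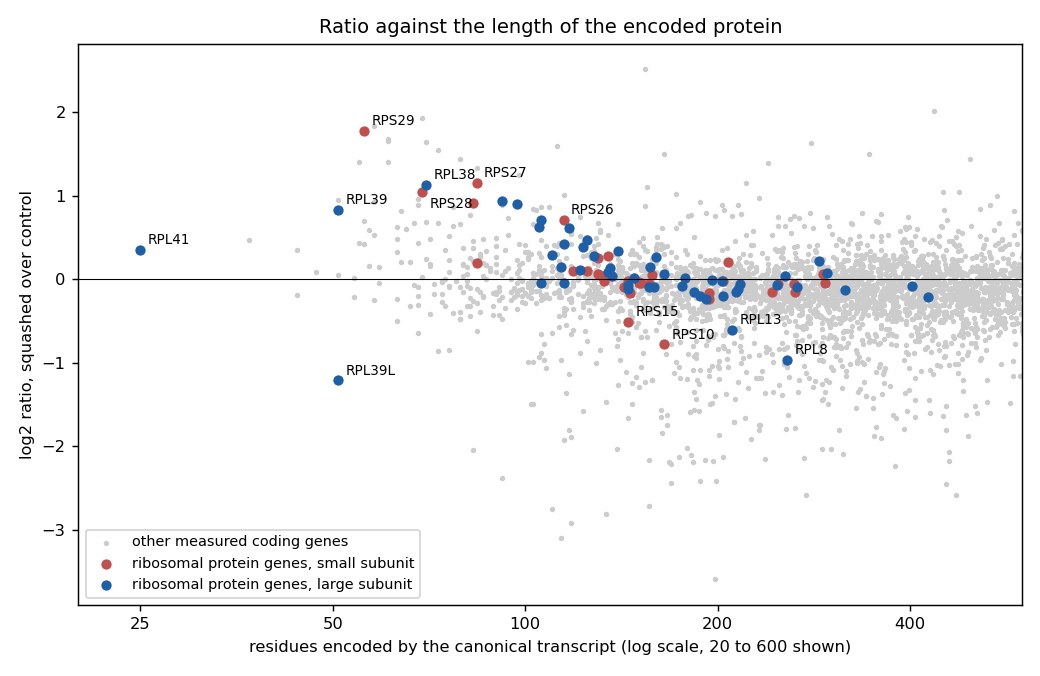
Log2 ratio of squashed over control (vertical axis) against the residues encoded (log axis) for 84 ribosomal protein genes (RPS19BP1 is not drawn), coloured by subunit, and other measured coding genes in grey. The members between 51 and 117 residues include the 12 with ratios from 0.61 to 1.78, RPL41 lies at 0.35, and RPL39L is the short member far below 0.

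Of the 6 paralogs with UMIs, RPS27L, RPL36AL and RPL39L had ratios far from those of their partners. RPS27L, a p53-induced relative of RPS27, stood at 1538 and 1767 CPM (0.20, 0.18 to 0.22) while RPS27 was at 1.16, so its share of the pair's UMIs was 30.1% (29.9 to 30.4) in the control and 18.2% (18.0 to 18.3) in the squashed library. RPL36AL was at -0.04 where RPL36A was at 0.71, and its share was 23.0% and 15.1%. RPL39L, a relative of RPL39 best known from testis and from cancer cells, stood at 71.6 and 30.9 CPM (-1.21, -1.34 to -1.09), and its share was 1.82% and 0.449%. The other pairs lay closer together. RPL22L1 was at 0.11 and RPL22 at 0.28, with shares of 30.9% and 28.4%. RPL26L1 and RPL26 were at -0.11 and -0.07, and RPL7L1, a factor of ribosome assembly, and RPL7 at 0.04 and -0.06. RPL3L and RPL10L, known from muscle and from testis, had 0 UMIs beside 86723 and 232467 control UMIs of RPL3 and RPL10. RPS19BP1 stood at 105 and 34.3 CPM (-1.61, -1.73 to -1.50), the lowest ratio of any measured symbol the rule took.

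Many members have processed pseudogenes, intronless copies that can take or lose reads: 79 of the 85 have at least 1 annotated pseudogene named after them, with a median of 12 and up to 133. The number of these copies ran weakly with the ratio (rho 0.13). RPS29 has 32, RPS27 30 and RPL36A 52, whereas RPL38 has 6, RPS28 5 and RPL37A 2. Levels of genes with near-identical copies are uncertain to the extent that reads were split among them.

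Single cells differed widely in how much of their mRNA encoded ribosomal proteins. At 2000 UMIs per cell the share had a median of 30.7% in 1825 control cells, with a 10th to 90th percentile of 23.5% to 42.4%. In 1782 squashed cells the median was 35.2%, with 25.2% to 47.7%. The SD over cells was 8.03 and 8.90 percentage points, where counting alone gives 1.04 and 1.07. Without thinning the medians were 30.9% and 35.2%.

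The difference between the libraries was small among cells with a like number of genes. Cells were placed in 3 classes by the number of genes detected at 2000 UMIs, with bounds of 748 and 864 genes. The medians were 41.6% in control and 41.6% in squashed cells with few genes, 32.9% and 32.9% in the middle class and 26.9% and 27.2% in cells with many genes. The few-gene class held 402 of 1825 control and 807 of 1782 squashed cells. A cell with more ribosomal protein UMIs has fewer left for other genes, so class and share are linked by construction, and the part of class sizes in the difference was not tested. By depth the medians were 33.8% and 37.2% at 2000 to 5000 UMIs, 35.2% and 39.5% at 5000 to 10000, 29.7% and 33.8% at 10000 to 20000, and 26.0% and 27.6% at 20000 or more. Squashed cells were thus higher in each depth class, and by the least in the deepest. Over cells the share ran against the depth of the cell (rho -0.52 in the control and -0.49 in the squashed library) and against its mitochondrial share (-0.55 and -0.49); both lie on the same UMIs as the share.

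**Figure D3:**
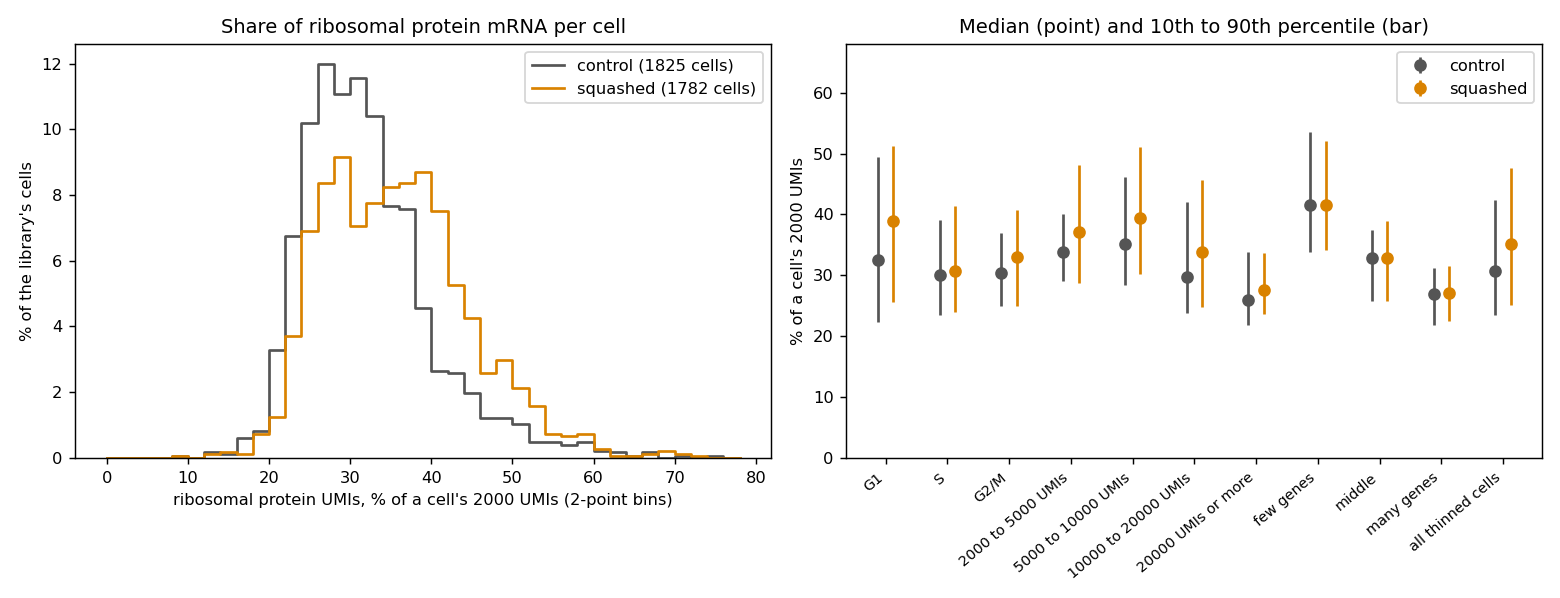
Left, the percentage of each library's cells (vertical axis) by the percentage of their 2000 UMIs that encode ribosomal proteins (horizontal axis, 2-point bins); right, the median as a point and the 10th to 90th percentile as a bar in groups of cells, control in grey and squashed in orange. The squashed cells reach further to high shares, whereas within classes of equal gene number both libraries have like medians, such as 32.9% and 32.9% in the middle class.

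The members at least 1.5-fold away were followed through groups of cells. All 17 such members kept their direction in 10 overlapping groups of cells, the 3 called phases, 4 depth classes and 3 classes of gene number. Of these members, 12 stayed at least 1.5-fold away in every group. The 17 were called on the sums of the same cells, so their agreement within the groups is in part fixed by that choice. No share of all measured genes is given beside these counts. RPS29 ran from 1.66 to 1.87, RPS27 from 0.95 to 1.23, RPL38 from 0.97 to 1.26 and RPL8 from -1.16 to -0.93. The 5 that came within 1.5-fold in at least 1 group were RPS26, RPL36A, RPL36, RPL34 and RPL13. RPS26 ran from 0.40 to 0.92 and RPL13 from -0.79 to -0.41. Of all 85 measured members, 43 kept their direction in every group, and members with small ratios crossed 0, such as RPL11 (-0.15 to 0.29), RPLP0 (-0.32 to 0.14) and RPS2 (-0.20 to 0.26).

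**Figure D4:**
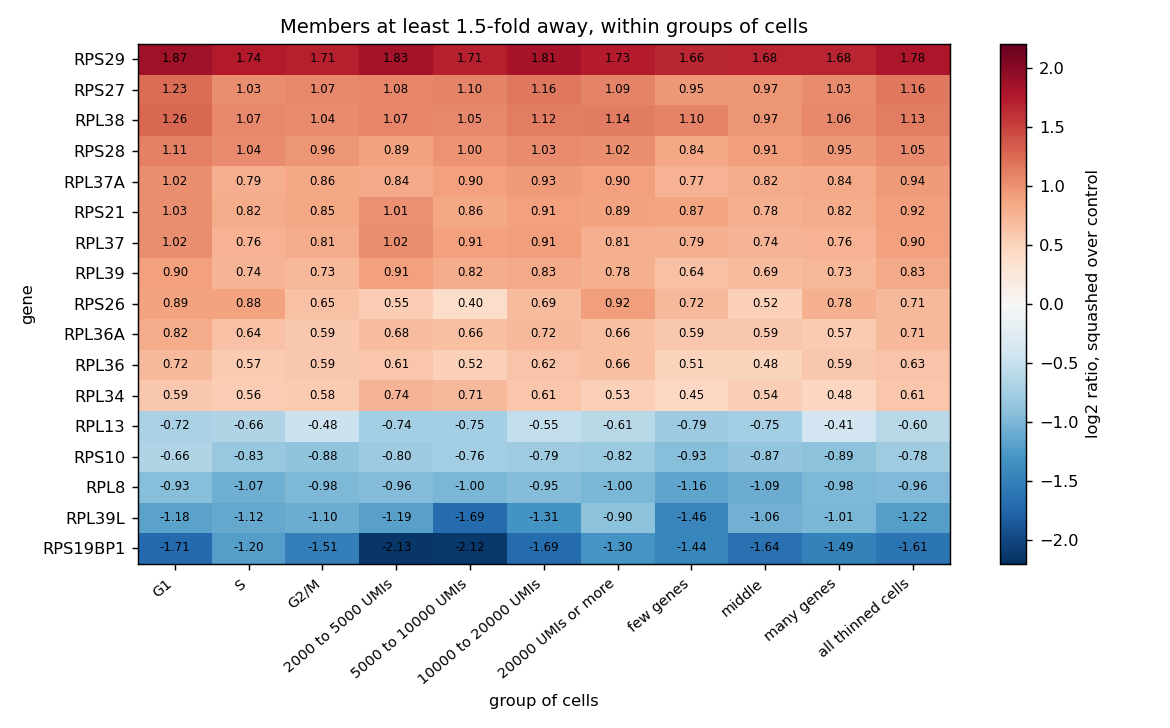
Log2 ratio of squashed over control (colour and printed value) for the 17 members at least 1.5-fold away (rows) in 10 groups of cells and in all thinned cells (columns). Each row keeps 1 colour throughout, and RPS29 lies between 1.66 and 1.87.

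Between phases of the cell cycle the members' median lay closer to 0 than that of all genes in each library. Phases were called from fixed lists of division genes that hold no member. From cells called G1 to cells called G2/M the median log2 ratio of the 85 members was -0.04 in the control and -0.13 in the squashed library, where all measured genes had medians of 0.23 and 0.40. In the control 6 members and in the squashed library 4 were at least 1.5-fold higher in G2/M, where 31.1% and 39.5% of all measured genes were, and 4 were so in both. These were RPL39L (1.63 and 1.72), RPL26L1 (1.17 and 0.82), RPL7L1 (0.79 and 1.04) and RPS19BP1 (0.93 and 1.13). RPL22L1 was at 1.05 and 0.52, and RPS26, next below these in both libraries, at 0.70 and 0.46. RPL23 had the lowest control value (-0.59, and -0.45 in the squashed library) and RPS19 the lowest in the squashed library (-0.50, and -0.35 in the control). Cells called G1 had a higher summed share than those called G2/M in both libraries. It was 31.2% against 29.4% in the control and 35.2% against 31.0% in the squashed library. After thinning, cells called G1 also had fewer genes. The medians were 798 against 867 genes in the control and 650 against 834 in the squashed library. Gene number and share are linked by construction, and the part of gene number in the difference between phases was not tested.

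**Figure D5:**
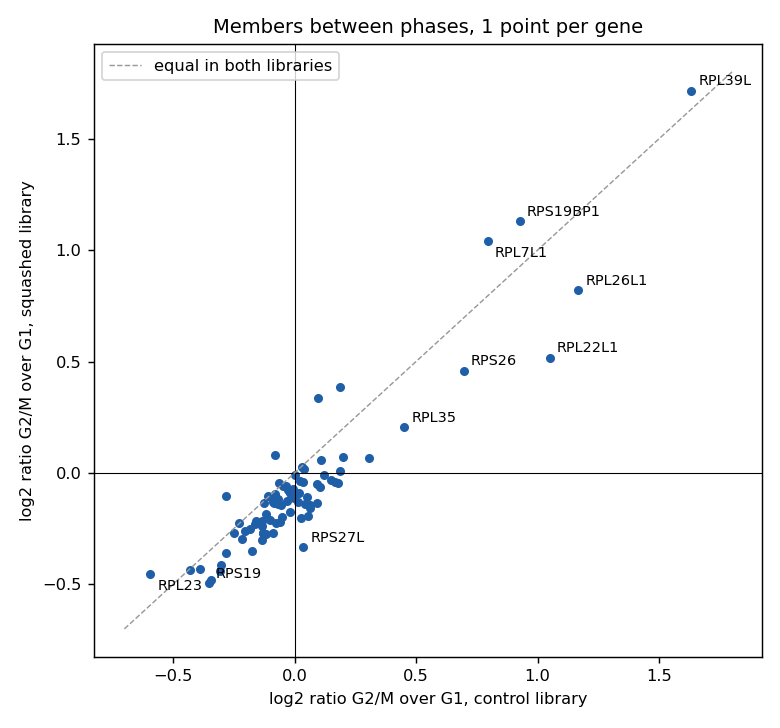
Log2 ratio of G2/M over G1 cells in the squashed library (vertical axis) against the same in the control library (horizontal axis), 1 point per measured member; the dashed line marks equal values. RPL39L lies at 1.63 and 1.72 in the upper right, with RPL26L1, RPS19BP1 and RPL7L1 next to it, and most members lie near or below 0.

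Several of the same genes stood at the top between classes of gene number. From cells with few genes to cells with many, the median ratio of the members was -0.63 in the control and -0.59 in the squashed library, where all measured genes had medians of 1.19 and 1.08. At least 1.5-fold lower in many-gene cells were 57 control and 44 squashed members of 85, where 2.80% and 2.93% of all measured genes were. RPL28 (-1.07 and -1.01), RPS27 (-1.03 and -0.95), RPL31 (-0.99 and -0.99) and RPS19 (-0.96 and -0.92) had the lowest values in both libraries. RPL7L1 (1.49 and 1.65), RPL39L (0.90 and 1.35) and RPS19BP1 (0.66 and 0.61) were at least 1.5-fold higher, and RPL26L1 was at 0.30 and 0.16. RPL36AL (-0.07 and 0.04), RPS27L (-0.09 and -0.22) and RPL22L1 (-0.14 and -0.04) lay near 0. As with the summed share, the classes are linked to these ratios by construction.

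Other genes of translation are set beside all 4307 measured genes, of which 3625 lay within 1.5-fold, 3.48% were higher and 12.4% lower by this size, and the median was -0.14. Of 7 genes listed as elongation factors, a group named for the step that lengthens the protein, 6 lay within 1.5-fold. The other, EIF5A, was lower (337 and 221 CPM, -0.61, -0.66 to -0.56), with EEF2 at -0.35 and a median of -0.19 over the list. Of 28 measured initiation factors, which bring ribosome and message together, 2 were lower, EIF1AX (-1.11) and EIF5 (-0.87), and 1 was higher, EIF5B (193 and 326 CPM; 0.76, 0.71 to 0.81), with a median of -0.13. All 7 ribosome-associated genes lay within 1.5-fold, from -0.25 for NPM1 to 0.33 for SERBP1. Of 28 measured genes of ribosome biogenesis, 2 were lower, RRS1 (27.9 and 11.7 CPM; -1.25) and RRP1 (31.0 and 15.2 CPM; -1.03), and 0 were higher, with a median of 0.06. The mitochondrial ribosome has its own proteins, encoded by separate nuclear genes. Of its 73 measured genes, 14 were lower and 2 higher by this size, with a median of -0.16, close to that of all genes, and its sum was 7530 and 6635 CPM (-0.18, -0.19 to -0.17).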

How the data were processed

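The authors deposited UMI counts, unnormalized whole numbers for each gene and barcode. Cell Ranger aligned the reads to GRCh38, per the labels; its version is 4.0.0 per the file headers, whereas the series' design text gives 5.0.1. The submitters' processing notes also list R 4.3.2. Cells with at least 1000 UMIs, 500 genes and at most 20% mitochondrial UMIs were kept. Doublets called by Scrublet in scanpy 1.11.5 (16 control, 15 squashed) were left in. UMIs were summed per library and scaled to CPM. The log2 ratio used a prior of 0.5 count, and intervals of ratios and shares are exact Clopper-Pearson. No test was possible with 1 library per group. PCR and cell-to-cell spread are not in the intervals. Transcripts and coordinates came from GENCODE 44 on GRCh38. Depth-matched values used cells thinned to 2000 UMIs. Ratios and summed shares within groups of cells used all UMIs of the cells with at least 2000 UMIs, so they are not depth-matched. TMM used edgeR 4.0.16. Scripts were tested on simulated data. Named genes were the 8 highest and 8 lowest ratios, members at least 1.5-fold away, the 6 with the highest CPM in the control, paralog pairs and role groups, and of related lists up to 4 genes with large ratios; RPS6, RPL41, RPL23 and the genes named between phases and classes were chosen after their values were seen, as were the coding length classes. A few items are counted in totals but not reported here by name. Members and lists were chosen with earlier results of these data known.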

Additional observations from a re-analysis of the deposited data

How the results depend on the processing

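The summed share, the members' median, the counts of higher and lower members and the ratios of named members were recomputed under those of 12 alternatives that bear on each (9 for the sum, 10 for named members), and the first 3 also under those of 4 more chosen after seeing the data; shares per cell, phases, paralog shares, length classes and other lists were not. The counts of 12 higher and 5 lower members stayed within 1.5 times under each that gives a count. The log2 ratio of the summed share, 0.12, was 0.28 with TMM, 0.18 scaled to UMIs outside the members, 0.10 with all barcodes, 0.12 with the stricter cell filter, 0.16 in thinned cells, 0.15 with cells weighted equally and 0.083 in cells with at least 10000 UMIs. Of the added ones, it was 0.055 for members over 500 nt, 0.10 without RPS29 and RPL41, and -0.0062 without the 12 higher members, which leaves out the highest values by construction. The members' median, close to 0 (-0.0036), has no stable sign: it was 0.15 with TMM, 0.053 scaled to UMIs outside the members, 0.025 in thinned cells, 0.029 with cells weighted equally, 0.0072 with no CPM minimum, 0.0072 without RPS19BP1 and RPS10-NUDT3, and -0.046 in cells with at least 10000 UMIs. The cause was not tested. TMM moved the median of all genes from -0.14 to 0.03. Of 50 named members 32 kept their sign under 10 alternatives; the other 18 stayed between -0.23 and 0.26. No paired analysis was possible because each group has 1 library.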

Other observations

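The barcodes removed by the cell filter, 668 control and 1202 squashed, held ribosomal protein mRNA at 14.9% and 15.5% of their UMIs, beside mitochondrial shares of 41.5% and 42.4%. The libraries were thus close to each other in these barcodes, and both were far below the kept cells. The filter removed barcodes with over 20% mitochondrial UMIs, so a lower ribosomal share of all UMIs follows in part from the filter.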
